A study of Homo sapiens with 8 samples.

Results

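The genes of Polycomb repressive complex 2 (PRC2) were examined in RNA-seq of 2 Burkitt lymphoma cell lines, with and without the histone deacetylase (HDAC) inhibitor chidamide. The 9 genes EZH1, EZH2, EED, SUZ12, RBBP4, RBBP7, JARID2, PHF19 and MTF2 were taken by symbol, out of 18143 genes that could be placed in the deposited table, and all 9 were among the 10710 genes with enough signal to be tested. Raji is a rituximab-sensitive Burkitt lymphoma line, and Raji-4RH is its rituximab-resistant derivative, obtained by repeated exposure to that antibody. Each line was treated for 24 h with 3 μM chidamide or with the solvent DMSO, which gave 4 groups (Raji DMSO, Raji chidamide, Raji-4RH DMSO and Raji-4RH chidamide) of 2 libraries each. Cells of all groups were collected by flow sorting, a step that the paper's RNA-seq methods do not mention. A comparison of the lines is that of 1 line with 1 derivative. The labels do not say that replicates came from separate cultures, so p-values measure the spread between these libraries, which may be technical.

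PRC2 places methyl groups on lysine 27 of histone H3, a mark of silenced genes. Its core holds 1 of the alternative methyltransferases EZH2 and EZH1, the scaffold SUZ12, the H3K27me3-binding protein EED and 1 of the histone chaperones RBBP4 and RBBP7. The core joins accessory proteins in alternative forms: PRC2.1 holds a Polycomb-like protein (PHF1, MTF2 or PHF19), and PRC2.2 holds JARID2 and AEBP2. EZH2 is known as a gene of dividing germinal center B cells and of lymphomas that arise from them, while EZH1 is known from resting cells.

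Levels are given as FPKM, the reads of a gene divided by its exon length and by the library's total, so levels of different genes can be compared per length. Library totals, inferred from the FPKM values themselves, ran from 13991697 reads, in Raji-4RH chidamide replicate 1, to 21193441 reads. FPKM shows a gene's share of that total, not its RNA per cell. In bulk samples fewer cells of a type and less RNA per cell cannot be told apart. Differences are given on the scale of log2(FPKM + 1), which understates changes of genes near or under 1 FPKM. All 9 B cell markers summed here (among them CD79A, MS4A1 and PAX5) were above 1 FPKM in all libraries, with summed levels of 649.9 to 1189 FPKM. Markers of other cells were low. The 5 T cell markers summed to 0.071 to 0.078 FPKM in Raji DMSO, 0.82 to 1.05 in Raji chidamide, 0.72 to 0.94 in Raji-4RH DMSO and 3.98 to 4.95 in Raji-4RH chidamide, and CD8A was at most 0.073. In Raji-4RH CD3E went from 0.619 and 0.830 FPKM to 2.94 and 4.10. The 6 myeloid markers summed to 1.13 to 1.31 FPKM with DMSO and 9.80 to 11.2 with chidamide, and CD14 was at most 0.777. CSF1R went from 0.079 and 0.058 FPKM to 4.63 and 5.06 in Raji and from 0.124 and 0.092 to 2.94 and 3.08 in Raji-4RH. ITGAM went from 0.063 and 0.061 to 3.96 and 3.58 in Raji and from 0.094 and 0.092 to 1.99 and 2.80 in Raji-4RH. LYZ went from 0.83 and 0.84 to 0.99 and 0.95 in Raji and from 0.151 and 0.134 to 4.13 and 4.06 in Raji-4RH. The 7 epithelial and stromal markers summed to at most 0.842 FPKM with DMSO and 1.42 to 2.39 with chidamide. EPCAM was at most 0.065, and COL1A1 went from 0.191 and 0.137 to 2.12 and 2.30 in Raji. The keratins of the list went the other way in Raji. KRT19 went from 0.325 and 0.234 FPKM to 0 and 0, and KRT18 from 0.173 and 0.139 to 0 and 0.045. KRT8 went from 0.13 and 0.16 FPKM to 0.007 and 0.014. The sums of these markers of other cells rose with chidamide in both lines, and their part in the results was not tested.

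Stretches upstream of the genes' starts (RefSeq, GRCh38.p14, 250 bases, 14 windows for the 9 genes) were searched on both strands for E2F motifs (TTTGGCGC, TTTCCCGC, TTTGCCGC or TTTCGCGC), because E2F factors are known to drive genes of the dividing cell, and for CCAAT and the cell cycle motif CHR (TTTGAA or TTCGAA). An E2F motif was found in 3 of the 14 windows, those of EZH1, SUZ12 and 1 start of PHF19, against 2.79% of the 35116 promoters of the same length. CCAAT was found in 10 of 14 windows (against 32.0% of promoters), those of 7 of the 9 genes, and CHR in 1, that of SUZ12 (against 14.3%). The RBBP4 windows overlap and share a CCAAT motif. Some windows lie partly in the gene's own GENCODE exons. The overlap is 209 bases for EED, 181 for 1 RBBP4 window, 140 for the PHF19 window with the E2F motif and at most 99 for the others. The windows of EZH2, EED, RBBP4, RBBP7, JARID2 and MTF2 held no E2F motif, so members that fell were among both kinds. None of the 3 E2F matches overlapped another motif. The 30 bases around each match are shown, since 2 of these genes fell with chidamide in both lines and EZH1 rose in Raji-4RH; capitals mark the match, and each is written 5′ to 3′ along the gene's strand.
SUZ12: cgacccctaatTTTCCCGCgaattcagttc
PHF19: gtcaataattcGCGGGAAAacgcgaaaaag
EZH1: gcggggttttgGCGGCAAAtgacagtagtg
The matches began 189 bases upstream of the SUZ12 start (window chr17:31936757-31937006, plus strand), 152 bases upstream of 1 of 2 PHF19 starts (window chr9:120877189-120877438, minus strand) and 115 bases upstream of the EZH1 start (window chr17:42745041-42745290, minus strand). The window of the first JARID2 start, the member that rose most with chidamide, is shown whole; it held none of the E2F letters and 1 CCAAT motif (chr6:15245819-15246068, plus strand).
JARID2: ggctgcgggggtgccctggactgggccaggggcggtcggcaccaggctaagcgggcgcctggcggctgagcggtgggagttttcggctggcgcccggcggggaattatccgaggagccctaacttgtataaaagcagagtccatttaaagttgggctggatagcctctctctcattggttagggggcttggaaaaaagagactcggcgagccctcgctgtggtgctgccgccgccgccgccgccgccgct
A match is a description of letters and no binding was measured here.

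With chidamide, 7 of the 9 PRC2 genes passed the test in Raji-4RH, JARID2 and EZH1 higher and PHF19, RBBP4, SUZ12, RBBP7 and EED lower. In Raji 5 of 9 passed, JARID2 higher and PHF19, RBBP4, SUZ12 and EED lower. The test was limma across all tested genes with Benjamini-Hochberg adjusted p under 0.05, and it called 74.9% of all genes in Raji-4RH (43.3% higher and 31.6% lower) and 60.0% in Raji (31.5% higher and 28.5% lower), so the number of members called was near the background in both lines. The median difference of the 9 genes was -0.41 in Raji-4RH and -0.10 in Raji, against 0.09 and 0.02 over all tested genes. The libraries of the 2 groups did not overlap for 8 of 9 genes in Raji-4RH, where EZH2 overlapped, and for 9 of 9 in Raji, against 86.5% and 82.8% of all tested genes. With 2 libraries against 2, an exact permutation test of a single gene cannot go below p = 0.33.

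**Figure D1:**
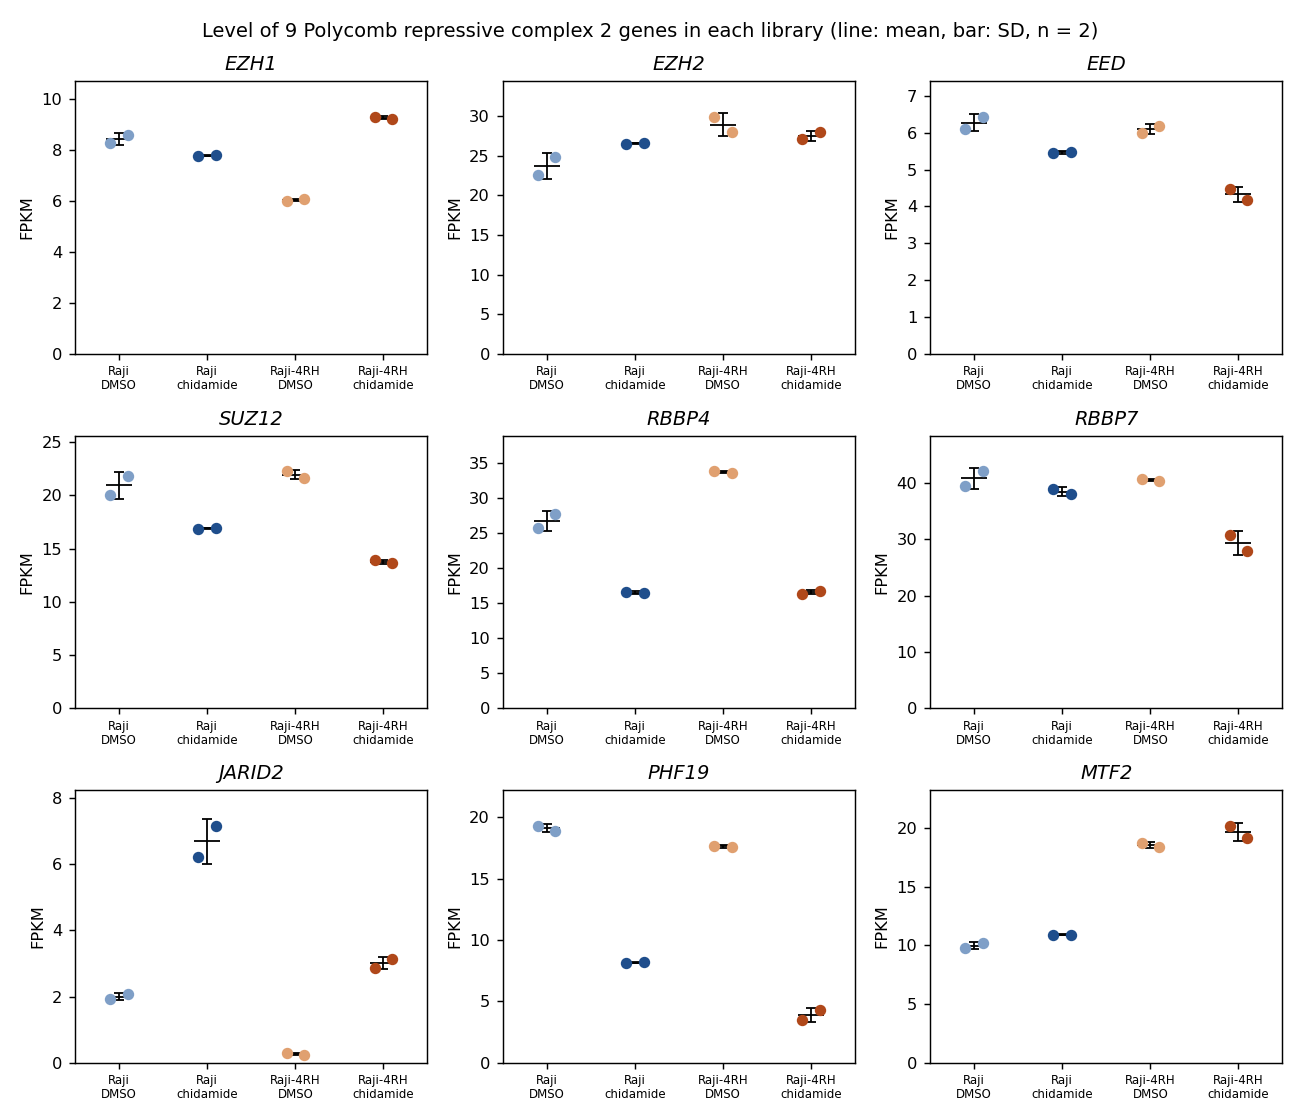
Level in FPKM of each of the 9 PRC2 genes (1 panel per gene, vertical axis from 0) in the 2 libraries of each group (points), with the mean (line) and SD (bar). JARID2 was higher and PHF19 and RBBP4 lower with chidamide in both lines, while EZH2 stayed between 22.6 and 30.0 FPKM in the 8 libraries.

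The methyltransferase EZH2 was abundant and moved little. Its levels were 22.6 and 24.8 FPKM in Raji DMSO, 26.5 and 26.6 in Raji chidamide, 30.0 and 27.97 in Raji-4RH DMSO and 27.1 and 27.99 in Raji-4RH chidamide. The lowest library was thus 1 of Raji DMSO, and the Raji-4RH groups overlapped. In Raji-4RH the difference of chidamide from DMSO was -0.07 (95% interval -0.21 to 0.07, limma adjusted p = 0.330), and it turned to 0.16 with quantile normalization (adjusted p = 0.0535, range over the alternatives 0.0505 to 0.822). In Raji the difference was 0.16 (95% interval 0.02 to 0.30, limma adjusted p = 0.0525), and the adjusted p ranged from 0.0122 to 0.282 over the alternatives, passing with quantile normalization, a pseudocount of 0.1, voom on the recovered reads, only unshifted rows and without Raji DMSO replicate 2 or either Raji-4RH chidamide library. Raji-4RH DMSO was higher than Raji DMSO by 0.28 ± 0.06 (SE, limma adjusted p = 0.0034), with means of 28.97 ± 1.41 and 23.7 ± 1.61 FPKM (SD, n = 2).

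The alternative methyltransferase EZH1 moved in the resistant line. Its levels were 8.26 and 8.57 FPKM in Raji DMSO, 7.74 and 7.79 in Raji chidamide, 6.005 and 6.05 in Raji-4RH DMSO, and 9.30 and 9.22 in Raji-4RH chidamide. Raji-4RH DMSO was the lowest group and Raji-4RH chidamide the highest, with no overlap between any of the 4 groups. The rise in Raji-4RH was 1.54-fold (0.55 ± 0.05 on the log2(FPKM + 1) scale, SE, limma adjusted p = 1.7e-05). In Raji the difference was -0.10 (95% interval -0.22 to 0.01, limma adjusted p = 0.113) and passed the test only after median centring of the samples (-0.14, adjusted p = 0.0404, range over the alternatives 0.0404 to 0.323). The effects in the 2 lines differed by 0.65 ± 0.07 (SE, limma interaction, adjusted p = 2.0e-04), and the call was kept without each library in turn. Raji-4RH DMSO was lower than Raji DMSO by -0.42 ± 0.05 (SE, limma adjusted p = 9.1e-05).

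Per length, EZH2 exceeded EZH1 in every library. The EZH2 level was 2.73 and 2.90 times that of EZH1 in Raji DMSO, 3.43 and 3.42 times in Raji chidamide, 4.99 and 4.62 times in Raji-4RH DMSO, and 2.92 and 3.04 times in Raji-4RH chidamide. EZH1 thus made up 16.7% and 17.8% of the summed EZH1 and EZH2 level in Raji-4RH DMSO and 25.5% and 24.8% in Raji-4RH chidamide. The share moved the other way in Raji, from 26.8% and 25.6% with DMSO to 22.6% and 22.6% with chidamide. These shares are described with no test.

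The genes of the core scaffold fell. SUZ12, which holds the complex together, was at 20.0 and 21.9 FPKM in Raji DMSO, against 16.9 and 16.9 in Raji chidamide. In Raji-4RH it was at 22.3 and 21.6 FPKM with DMSO and 13.9 and 13.6 with chidamide. Chidamide libraries were below DMSO libraries in both lines, with no overlap. SUZ12 fell by 0.64 on the log2(FPKM + 1) scale in Raji-4RH (SE 0.06, limma adjusted p = 1.3e-05) and by 0.29 in Raji (SE 0.06, limma adjusted p = 0.0022). The fall was larger in Raji-4RH, with a difference of -0.35 ± 0.08 (SE, limma interaction, adjusted p = 0.0079). Without chidamide the lines differed by 0.07 (95% interval -0.06 to 0.20, limma adjusted p = 0.309). SUZ12 shares 6.79% of its 31-base stretches with the pseudogene SUZ12P1, so part of its reads is uncertain.

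EED, which binds the H3K27me3 mark, fell in both lines. Its levels were 6.11 and 6.44 FPKM in Raji DMSO, 5.44 and 5.49 in Raji chidamide, 6.004 and 6.19 in Raji-4RH DMSO and 4.46 and 4.19 in Raji-4RH chidamide. It fell by 0.41 on the log2(FPKM + 1) scale in Raji-4RH (SE 0.06, limma adjusted p = 2.0e-04). The fall in Raji was by 0.17 (SE 0.06, limma adjusted p = 0.0319, range over the alternatives 0.0168 to 0.145), and that call was lost without any 1 of Raji DMSO replicate 2, the Raji chidamide libraries or the Raji-4RH DMSO libraries. The difference between the lines, -0.25 ± 0.08 (SE, limma interaction, adjusted p = 0.0354, range 0.0094 to 0.108), was lost without any 1 library other than Raji DMSO replicate 2 and Raji-4RH chidamide replicate 1. In DMSO the lines differed by -0.04 (95% interval -0.17 to 0.10, limma adjusted p = 0.597).

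**Figure D2:**
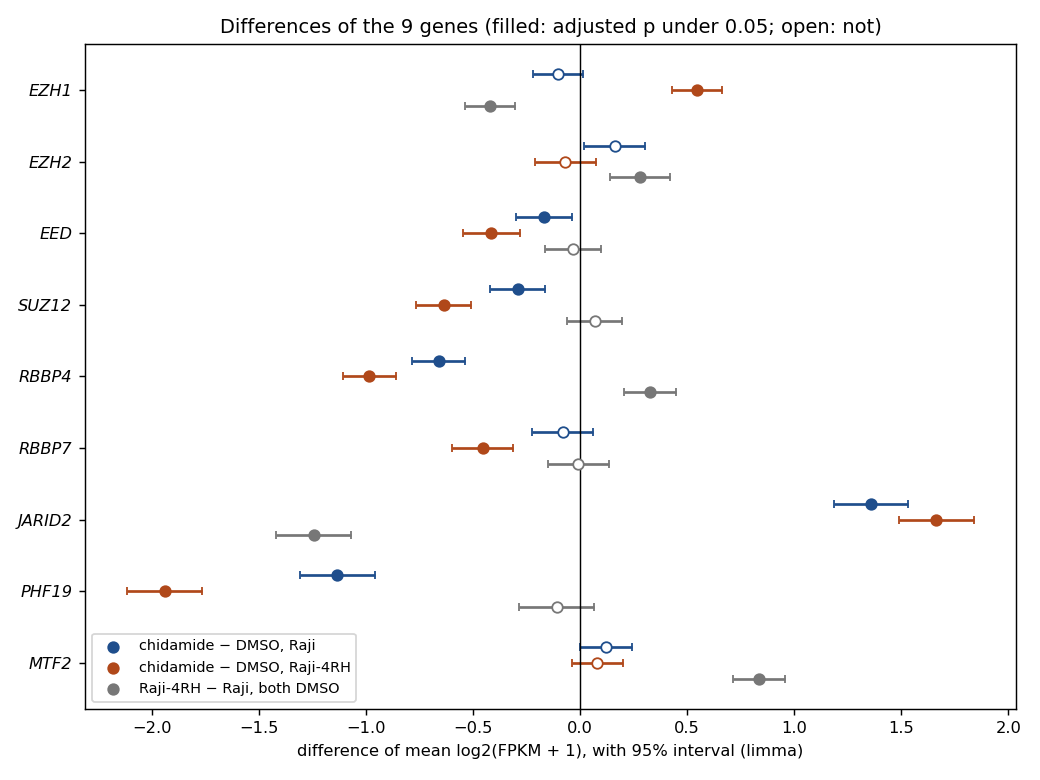
Difference of mean log2(FPKM + 1) for each of the 9 PRC2 genes, with its 95% interval, for chidamide against DMSO in Raji (blue), the same in Raji-4RH (orange) and Raji-4RH DMSO against Raji DMSO (grey). Filled points passed the limma test and open points did not; PHF19 lies lowest with chidamide in both lines, at -1.13 and -1.94, and JARID2 highest, at 1.36 and 1.66.

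Of the histone chaperones, RBBP4 fell in both lines and RBBP7 in the resistant line. RBBP4 was at 25.7 and 27.7 FPKM in Raji DMSO, 16.6 and 16.4 in Raji chidamide, 33.9 and 33.6 in Raji-4RH DMSO and 16.4 and 16.8 in Raji-4RH chidamide. The DMSO groups stood apart, while both chidamide groups lay at about the same level. RBBP4 fell by 0.98 on the log2(FPKM + 1) scale in Raji-4RH (SE 0.05, 2.04-fold lower, limma adjusted p = 7.8e-07) and by 0.66 in Raji (SE 0.05, 1.62-fold lower, limma adjusted p = 1.9e-05). The effects differed by -0.32 ± 0.08 (SE, limma interaction, adjusted p = 0.0084). Raji-4RH DMSO was higher than Raji DMSO by 0.33 ± 0.05 (SE, limma adjusted p = 5.9e-04). RBBP4 shares 19.5% of its 31-base stretches with other genes, mostly SYNC on the opposite strand, whose own level was at most 0.164 FPKM, and the rest with 2 RBBP4 pseudogenes.

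RBBP7 was the most abundant member in all 4 groups. It was at 39.5 and 42.1 FPKM in Raji DMSO, 39.0 and 38.0 in Raji chidamide, 40.6 and 40.4 in Raji-4RH DMSO and 30.8 and 27.8 in Raji-4RH chidamide. The Raji-4RH chidamide libraries lay under the other 6. RBBP7 fell by 0.46 on the log2(FPKM + 1) scale in Raji-4RH (SE 0.06, limma adjusted p = 1.8e-04). In Raji the difference was -0.08 (95% interval -0.22 to 0.06, limma adjusted p = 0.289) and 0.036 with quantile normalization (adjusted p = 0.704, range over the alternatives 0.128 to 0.722). The difference between the effects, -0.37 ± 0.09 (SE, limma interaction, adjusted p = 0.0085, range 0.0011 to 0.0729), was lost with quantile normalization (-0.26, adjusted p = 0.0729). In DMSO the lines differed by -0.01 (95% interval -0.15 to 0.13, limma adjusted p = 0.905), or by 0.023 with quantile normalization. RBBP7 shares 1.97% of its 31-base stretches with TXLNG on the opposite strand, whose level was 17.02 to 31.9 FPKM.

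Of the accessory genes, PHF19 and JARID2 moved furthest of the 9 members, while MTF2 did not pass with chidamide in either line. PHF19, a Polycomb-like protein of PRC2.1 that reads methylated H3K36, was at 19.3 and 18.9 FPKM in Raji DMSO, against 8.14 and 8.18 in Raji chidamide. In Raji-4RH it was at 17.7 and 17.5 FPKM with DMSO and 3.47 and 4.26 with chidamide. PHF19 fell 4.56-fold in Raji-4RH (-1.94 ± 0.08 on the log2(FPKM + 1) scale, SE, limma adjusted p = 1.6e-07) and 2.34-fold in Raji (-1.13 ± 0.08, SE, limma adjusted p = 6.9e-06). It ranked 51 from the lowest difference of 10710 tested genes in Raji-4RH and 44 in Raji. The fall was larger in Raji-4RH, with a difference of -0.81 ± 0.11 (SE, limma interaction, adjusted p = 5.0e-04), and that call was kept without each library in turn. In DMSO the lines differed by -0.11 (95% interval -0.28 to 0.06, limma adjusted p = 0.219, range without each library 0.048 to 0.438), which passed without either Raji-4RH chidamide library.

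MTF2, another Polycomb-like protein of PRC2.1, differed between the lines. Its levels were 9.75 and 10.2 FPKM in Raji DMSO, 10.9 and 10.9 in Raji chidamide, 18.7 and 18.4 in Raji-4RH DMSO and 20.2 and 19.1 in Raji-4RH chidamide. All Raji-4RH libraries lay above all Raji libraries. MTF2 was 1.86-fold higher in Raji-4RH DMSO than in Raji DMSO (0.83 ± 0.05 on the log2(FPKM + 1) scale, SE, limma adjusted p = 1.7e-06). The difference with chidamide was 0.08 in Raji-4RH (95% interval -0.04 to 0.20, limma adjusted p = 0.195), with 0.25 and an adjusted p of 0.0059 under quantile normalization (range over the alternatives 0.0059 to 0.954). In Raji it was 0.12 (95% interval -0.0022 to 0.24, limma adjusted p = 0.0831, range 0.0449 to 0.279), and it passed without either Raji-4RH chidamide library. The effects differed by -0.04 (95% interval -0.21 to 0.13, limma interaction, adjusted p = 0.696), or by 0.14 with quantile normalization.

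JARID2, the PRC2.2 subunit that helps bring the complex to its targets, was the lowest member in 3 groups and rose most. It was at 1.92 and 2.07 FPKM in Raji DMSO, against 6.21 and 7.18 in Raji chidamide. In Raji-4RH it was at 0.284 and 0.243 FPKM with DMSO, from 32 and 31 reads, and at 2.88 and 3.13 with chidamide, from 242 and 347 reads. No groups overlapped. Raji-4RH DMSO was thus 7.58-fold lower than Raji DMSO (-1.25 ± 0.08 on the log2(FPKM + 1) scale, SE, limma adjusted p = 1.4e-06). With chidamide JARID2 rose 11.4-fold in Raji-4RH (1.66 ± 0.08, SE, limma adjusted p = 3.4e-07) and 3.35-fold in Raji (1.36 ± 0.08, SE, limma adjusted p = 2.7e-06). The treated Raji-4RH libraries remained under the treated Raji libraries, and the untreated Raji libraries lay under both. The difference between the effects was 0.30 ± 0.11 (SE, limma interaction, adjusted p = 0.0454, range 3.3e-04 to 0.663). It was 1.77 with voom on the recovered reads and 0.060 with quantile normalization (adjusted p = 0.663). That call was also lost after median centring (adjusted p = 0.0588), with no filter (adjusted p = 0.0798) and without any 1 library other than Raji chidamide replicate 2 and Raji-4RH chidamide replicate 1.

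**Figure D3:**
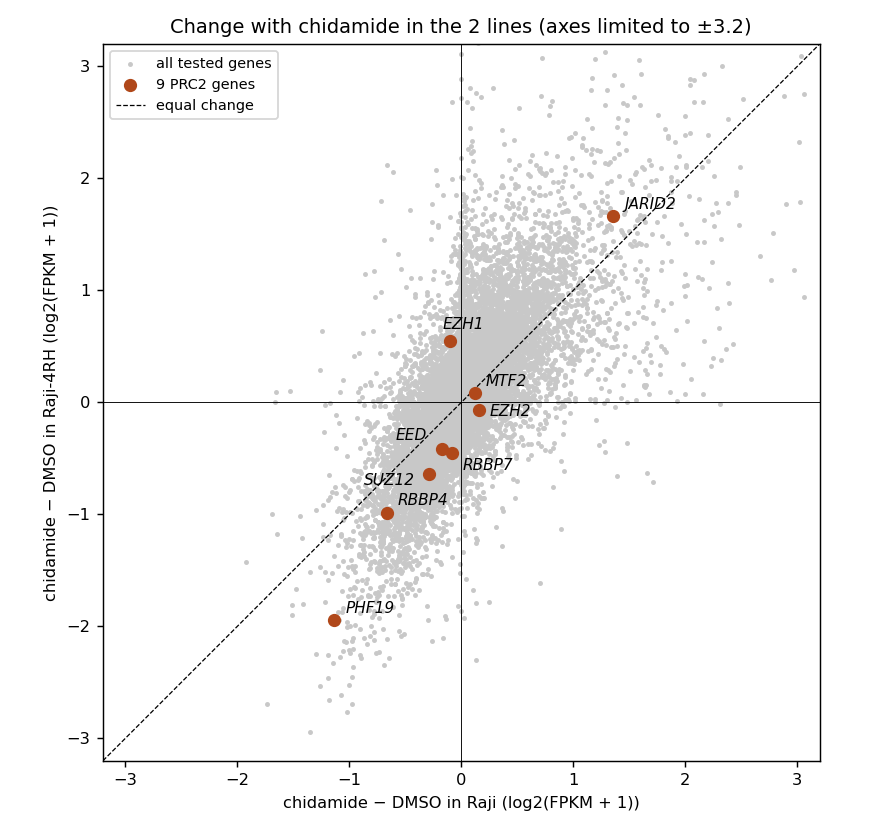
Difference of chidamide from DMSO in log2(FPKM + 1) in Raji (horizontal) and Raji-4RH (vertical) for all 10710 tested genes (grey, axes limited to ±3.2) and the 9 PRC2 genes (orange), with a dashed line of equal change. PHF19, RBBP4, SUZ12, EED and RBBP7 lie under the dashed line. EZH1 lies above it at -0.10 and 0.55, and JARID2 at 1.36 and 1.66. EZH2 (which is 0.16 in Raji-4RH with quantile normalization) and MTF2 lie near 0 in both lines, at 0.16 and -0.07 for EZH2.

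The make-up of the accessory transcripts shifted with treatment in both lines. PHF19 made up 50.1% and 50.9% of the summed PHF19, MTF2 and PHF1 level in Raji DMSO, against 25.5% and 26.5% in Raji chidamide. In Raji-4RH its share was 39.9% and 39.7% with DMSO and 10.8% and 13.04% with chidamide, while MTF2 went from 42.2% and 41.6% to 62.9% and 58.6%. JARID2 made up 12.6% and 13.3% of the summed JARID2 and AEBP2 level in Raji DMSO, 34.9% and 36.4% in Raji chidamide, 2.49% and 2.31% in Raji-4RH DMSO and 18.7% and 25.6% in Raji-4RH chidamide. The level of PHF19 was 10.1 and 9.10 times that of JARID2 in Raji DMSO, against 1.31 and 1.14 times in Raji chidamide. In Raji-4RH it was 62.4 and 72.1 times with DMSO and 1.21 and 1.36 times with chidamide. The Raji-4RH DMSO ratios and JARID2 shares rest on 32 and 31 JARID2 reads and are imprecise. The ranges of the treated and untreated groups did not overlap in either line. These shares and ratios were chosen after the values were seen and are described with no test.

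**Figure D4:**
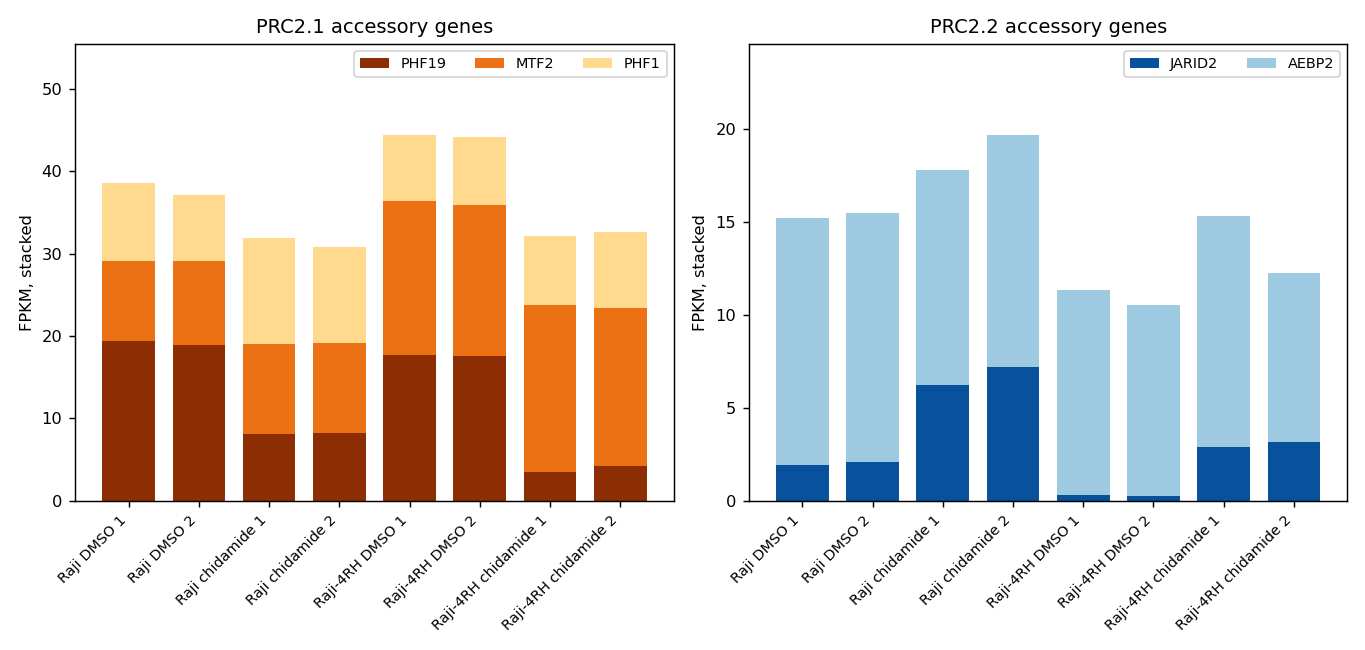
Levels in FPKM of the accessory genes of PRC2.1 (PHF19, MTF2 and PHF1, left) and PRC2.2 (JARID2 and AEBP2, right), stacked for each of the 8 libraries. The PHF19 part shrank from 17.5 to 19.3 FPKM with DMSO to 3.47 to 8.18 with chidamide, and the JARID2 part grew in both lines.

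The order of levels placed RBBP7 first in each group, and EZH2 was exceeded only by RBBP7 and RBBP4 with DMSO, and only by RBBP7 with chidamide, in both lines. JARID2 was last in 3 groups, and in Raji chidamide EED was last at 5.44 and 5.49 FPKM. PHF19 exceeded MTF2, EZH1, EED and JARID2 in Raji DMSO, and only JARID2 in Raji-4RH chidamide. Neighbours in the order whose libraries overlapped were EED and EZH1 in Raji-4RH DMSO, and RBBP7 with EZH2 and EED with PHF19 in Raji-4RH chidamide, apart from which no neighbours overlapped.

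With chidamide the other tested accessory genes and the H3K27 demethylases changed less than PHF19 and JARID2 did. Of 8 listed genes 7 were placed and 6 tested. With chidamide 2 were called higher and 1 lower in Raji-4RH, while 3 were called higher in Raji and the others did not pass (limma). Among all tested genes 74.9% were called in Raji-4RH and 60.0% in Raji. The H3K27 demethylase KDM6A rose by 0.30 in Raji-4RH (adjusted p = 0.0077), a call lost with quantile normalization and without Raji-4RH DMSO replicate 2, and by 0.40 in Raji (adjusted p = 0.0027). KDM6B, the other H3K27 demethylase, was 0.26 lower with chidamide in Raji-4RH at an adjusted p of 0.0318, a call lost with quantile normalization, with no filter, with only the libraries compared and without any 1 of the Raji chidamide libraries, the Raji-4RH DMSO libraries or Raji-4RH chidamide replicate 1, and in Raji its difference was 0.21 (adjusted p = 0.0838). PHF1 rose by 0.45 in Raji (adjusted p = 0.0021), with 9.52 and 8.03 FPKM against 12.9 and 11.7, and its difference in Raji-4RH was 0.11 (adjusted p = 0.267). AEBP2 was at 12.5 and 9.12 FPKM in Raji-4RH chidamide and 11.1 and 10.3 in Raji-4RH DMSO, so that its difference of -0.00054 became 0.21 when chidamide replicate 2 of that line was left out and -0.21 when replicate 1 was. LCORL, a PRC2.1 accessory gene, was higher with chidamide in Raji-4RH by 0.23 (adjusted p = 0.0069) but lower by -0.34 with quantile normalization (adjusted p = 9.88e-04, range over the alternatives 9.88e-04 to 0.0494). Its paralog LCOR differed by 0.05 in Raji-4RH (adjusted p = 0.473, and -0.10 with quantile normalization), rose by 0.17 in Raji (adjusted p = 0.0248, lost with quantile normalization, median centring and without any 1 Raji library) and was 0.63 higher in Raji-4RH DMSO than in Raji DMSO. EZHIP, an inhibitor of PRC2, was at most 0.679 FPKM and was not tested.

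Polycomb repressive complex 1 (PRC1), which ubiquitinates histone H2A and binds the mark that PRC2 makes, moved in both directions. Of 21 placed and tested genes, 8 rose and 8 fell in Raji-4RH, and 5 rose and 6 fell in Raji, near the 74.9% and 60.0% of all tested genes that were called. The medians were 0.03 and -0.04. RYBP, of the variant form of PRC1, rose by 1.00 in Raji-4RH and 0.72 in Raji, and PHC1, of the canonical form, by 0.67 and 0.77. PCGF6 fell by 1.40 in Raji-4RH and L3MBTL2, its partner in a variant PRC1, fell by 1.21 there. L3MBTL2 fell by 0.78 in Raji. The largest differences of this list between the lines in DMSO were those of SCML2, at 0.012 and 0 FPKM in Raji and 8.40 and 7.22 in Raji-4RH, and of the ubiquitin ligase RNF2, at 0.671 and 0.634 against 6.23 and 6.51. Raji-4RH DMSO was higher in 9 of 21 and lower in 5, against 41.2% and 32.4% of all tested genes.

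Genes that act on H2A ubiquitination or H3K36 methylation fell or did not pass. In Raji-4RH 7 of 9 tested genes fell and in Raji 4 fell, and the others did not pass (limma); of all tested genes 31.6% and 28.5% fell. The H3K36 methyltransferase NSD2 went from 15.1 and 14.1 FPKM to 4.90 and 4.68 in Raji-4RH and from 20.4 and 20.2 to 11.2 and 11.2 in Raji. It fell by 1.43 and by 0.80 on the log2(FPKM + 1) scale, more in Raji-4RH (interaction -0.62, limma adjusted p = 3.6e-04). NSD1, of the same family, fell by 0.71 and 0.60.

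Most partners of RBBP4 and RBBP7 in other complexes (NuRD, Sin3, DREAM, CAF-1 and NURF) fell. Of 19 tested genes 13 fell and 2 rose in Raji-4RH, and 11 fell and 2 rose in Raji, where 31.6% and 28.5% of all tested genes fell. The medians were -0.48 and -0.39. CHAF1A, the large subunit of the histone chaperone CAF-1, went from 36.6 and 37.4 FPKM to 7.80 and 8.16 in Raji-4RH and from 40.5 and 37.2 to 25.1 and 27.7 in Raji, and the fall was larger in Raji-4RH (interaction -1.54, limma adjusted p = 1.2e-05). CHAF1B fell by 1.64 in Raji-4RH and 0.69 in Raji. The NURF subunit BPTF rose by 0.27 in Raji-4RH and went from 17.8 and 18.7 FPKM to 13.2 and 13.1 in Raji. SUDS3, of Sin3, rose by 0.20 in Raji-4RH and 0.15 in Raji.

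All 14 proliferation markers fell with chidamide in both lines, with medians of -2.23 in Raji-4RH and -0.97 in Raji, and each fell further in Raji-4RH by the interaction. MCM4, of the replicative helicase, went from 76.7 and 76.2 FPKM to 8.62 and 9.50 in Raji-4RH and from 110 and 112 to 43.3 and 42.6 in Raji. PHF19, RBBP4 and SUZ12 fell with these markers and further in the same line, and the part of proliferation in their fall was not tested.

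**Figure D5:**
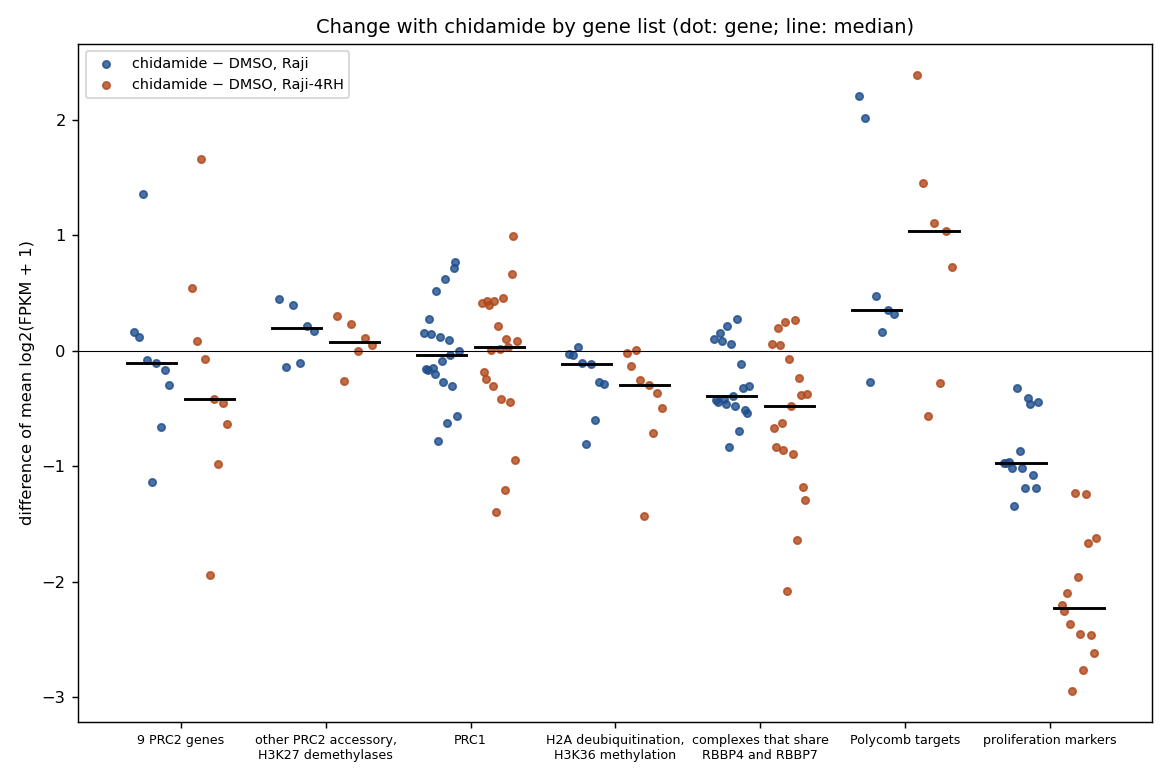
Difference of chidamide from DMSO in log2(FPKM + 1) for the tested genes of each list (dots) and their median (black line), in Raji (blue) and Raji-4RH (orange). The 14 proliferation markers all lie below 0 in both lines, while the 9 PRC2 genes run from -1.94 to 1.66 in Raji-4RH.

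Genes widely used as Polycomb targets were mostly silent. Of 25 placed genes, 22 were under 1 FPKM in both Raji DMSO libraries and 21 in both Raji-4RH DMSO libraries, and with chidamide 19 and 18 still were. HOXD10 and TBX5 were listed at 0 in all 8 libraries. Of the 7 that reached the filter, which a gene can pass through its treated libraries, 5 rose and 1 fell in each line. DAB2IP, CDKN2B and PRDM1, which rose in Raji-4RH, reached it through chidamide libraries alone, so their rise there was favoured in advance. The placed genes that did not reach the filter are not in these counts, which therefore do not show whether the list as a whole rose. Among all tested genes 43.3% rose and 31.6% fell in Raji-4RH, and 31.5% rose and 28.5% fell in Raji. The cell cycle inhibitor CDKN1A went from 28.8 and 32.6 FPKM to 161 and 169 in Raji-4RH and from 10.7 and 10.1 to 51.6 and 51.4 in Raji. DAB2IP rose from 0.127 and 0.123 FPKM to 2.02 and 2.16 in Raji-4RH and fell from 0.476 and 0.378 to 0.191 and 0.177 in Raji. IRF4, a B cell transcription factor, went from 0.498 and 0.572 to 5.04 and 5.36 in Raji, and from 2.03 and 1.89 to 3.54 and 4.29 in Raji-4RH. CDKN2A, a known Polycomb target, fell by 0.57 in Raji-4RH.

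Comparison of the untreated lines gave 5 of 9 PRC2 genes that passed, MTF2, RBBP4 and EZH2 higher in Raji-4RH and JARID2 and EZH1 lower, against 73.6% of all tested genes (41.2% higher and 32.4% lower). The groups did not overlap for 6 of 9 members, against 88.5% of tested genes. Of the accessory members, MTF2 was higher and JARID2 lower in untreated Raji-4RH, and PHF19 did not pass. The difference of the chidamide effects, Raji-4RH minus Raji, was positive for EZH1 and JARID2 and negative for PHF19, SUZ12, RBBP4, RBBP7 and EED. The test of that difference called these 7 of 9 members, against 48.8% of tested genes. EZH2 (-0.23, 95% interval -0.43 to -0.03, limma adjusted p = 0.0587, range over the alternatives 0.0297 to 0.465) and MTF2 did not pass it, and EZH2 did pass after median centring, with voom and without Raji DMSO replicate 2 or Raji-4RH chidamide replicate 2.

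Of the tested genes, 6613 averaged 5 FPKM or more, and those whose log2(FPKM + 1) was most like that of EZH1 over the 8 libraries were TAF7 (Pearson's r = 0.999), RAB3GAP2 (0.986), STYX (0.978), IL4R (0.967) and RABAC1 (0.966). The genes most like EZH2 were SEC23IP (r = 0.979), RCL1 (0.957), EIF3I (0.946), MDH1 (0.936) and AREL1 (0.936). The 8 points come from 4 groups, so these values mostly describe likeness between group means, and they are given with no test.

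The 9 genes lie on GRCh38 (GENCODE v29) at chr17:42700275-42745049 (EZH1), chr7:148807383-148884321 (EZH2), chr11:86244544-86278813 (EED), chr17:31937018-32001045 (SUZ12), chr1:32651142-32686211 (RBBP4), chrX:16839283-16870414 (RBBP7), chr6:15246296-15522040 (JARID2), chr9:120855652-120894896 (PHF19) and chr1:93079235-93139081 (MTF2). The deposited gene length equalled the joined exon length of that annotation for all 9. In the deposited table the values of SUZ12 lay 5 rows, those of RBBP4 3 rows and those of MTF2 1 row below their labels, while the other 6 shared a row with their label. At the labels' own rows SUZ12 would read at most 0.016 FPKM and MTF2 0, and RBBP4 at most 1.89.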

How the data were processed

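RNA-seq of Raji and Raji-4RH cells, treated with DMSO or chidamide (3 μM, 24 h), was analyzed in 2 libraries per group. The authors deposited 1 table of FPKM values with gene lengths and Ensembl IDs on GRCh38. Library preparation used the NEBNext Ultra kit, and an Illumina HiSeq X instrument read the libraries. The submitters' processing notes name HISAT2 2.0.5, SAMtools 1.7, HTSeq 0.9.1 and DESeq2 1.22.2. Strand was not stated, so genes that overlap on opposite strands cannot be told apart.

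Each library total was fitted so that FPKM times length times that total gave whole reads, which held for 100% of values (tolerance 0.01). Of 63967 rows, 662 repeat earlier reads, and values lie below their labels from part of the table on. Genes were placed by fixed row shifts derived from earlier work on this table (18143 genes, 90.7% to 93.2% of reads), and FPKM was recomputed with the label's own length. Differences were tested with limma 3.58.1 (lmFit, eBayes with trend, R 4.3.3) on log2(FPKM + 1), in 1 fit over 8 libraries (4 residual degrees of freedom), for the 10710 genes that reached 1 FPKM in 2 or more libraries. Genes passed at a Benjamini-Hochberg adjusted p under 0.05. The script was tested on simulated data in which far fewer genes changed than were called here. That run checks the code and not these calls. Folds are ratios of mean FPKM.

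Named genes are the 9 members, the accessory and demethylase list, the largest rises and falls of each other list, and the 5 genes most like EZH1 and EZH2. The members, lists and motifs were chosen with earlier results of these data known, and the table's faults were seen before the alternatives were set. Alternatives were quantile normalization, median centring, a pseudocount of 0.1, no filter, a filter on the mean (1 FPKM), no trend, voom on recovered reads, only the libraries compared, a replicate block, the rows as deposited, only unshifted rows and leaving out each library. A block with crossed numbers was added after seeing the data. Shared sequence was counted in stretches of 31 bases of GENCODE v29 transcripts. Python 3.11.15, pandas 2.3.3, numpy 2.4.6 and matplotlib 3.10.9 were used. 1 gene of the B cell marker list is not reported here and was left out of its sums.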

Additional observations from a re-analysis of the deposited data

Results flagged for a closer look

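The change with chidamide differed between the lines by the limma interaction for 7 PRC2 genes, given as the effect in Raji-4RH minus that in Raji on the log2(FPKM + 1) scale. These were EZH1 (0.65), JARID2 (0.30), PHF19 (-0.81), RBBP7 (-0.37), SUZ12 (-0.35), RBBP4 (-0.32) and EED (-0.25). The calls of JARID2 (0.060) and RBBP7 (-0.26) were lost with quantile normalization, and that of EED with the replicate block. Those of JARID2 and EED were also lost without some single libraries. Among the accessory genes and demethylases the interaction was also called for LCORL (0.34), KDM6B (-0.48) and PHF1 (-0.34), of which LCORL was 0.03 with quantile normalization (adjusted p = 0.809). The KDM6B call was lost without Raji DMSO replicate 2, Raji chidamide replicate 2 or Raji-4RH DMSO replicate 2. The PHF1 call (adjusted p = 0.0474) was lost with a pseudocount of 0.1, no filter, the replicate block and the rows as deposited, and without any 1 library other than Raji DMSO replicate 1 and Raji-4RH chidamide replicate 2 (up to 0.160). Of PRC1 it was called for PCGF3 (0.60), BCOR (0.52), KDM2B (-1.10) and PCGF6 (-0.83), and of the H2A and H3K36 genes for NSD2 (-0.62) and BAP1 (-0.38). Of the partners of RBBP4 and RBBP7 it was called for BPTF (0.71), MTA3 (0.53), CHAF1A (-1.54) and LIN9 (-0.97). Of the Polycomb targets it was called for DAB2IP (1.72), CDKN2B (0.79), IRF4 (-1.29) and RUNX3 (-0.75), where DAB2IP and CDKN2B reached the filter through the 2 Raji-4RH chidamide libraries alone, so that a positive value was favoured in advance. Of the proliferation markers MCM5 (-1.74) and MCM4 (-1.60) differed most. Over all tested genes 48.8% were called by this test.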

How the results depend on the processing

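Members called stayed within 1.5 times of the main count under all alternatives run except the rows as deposited, which gave 3 in Raji and 3 between the untreated lines (SUZ12 and MTF2 could not be fitted there), and only unshifted rows, which gave 3 of 6 between the untreated lines. Only unshifted rows gave 3326, 2702, 2178 and 3258 genes called in Raji-4RH, Raji, the interaction and the untreated lines, because fewer genes (4331) were tested. At the rows as deposited, which hold other genes' values where shifted, signs turned for RBBP4 (1.48 in Raji-4RH, 0.025 in Raji, interaction 1.46), LCOR (-0.016, -0.10, interaction 0.084), KDM6A (-0.030 in Raji, interaction 0.40, untreated -0.31), KDM6B (-0.67 in Raji), RYBP (-0.11 and -0.18), GATAD2B (-0.29 in Raji), MCM7 (0.87 in Raji), CDKN2B (interaction -0.71), IRF4 (interaction 0.71, untreated -0.31), PHC2 (untreated 0.50) and GATAD2A (untreated -1.54). Quantile normalization turned EZH2 (0.16), AEBP2 (0.039), LCOR (-0.10) and LCORL (-0.34) in Raji-4RH, RBBP7 in Raji (0.036) and untreated (0.023), and the MTF2 interaction (0.14); median centring turned LCOR in Raji-4RH (-0.031). The cause was not tested. Leaving out 1 library turned AEBP2 in Raji-4RH (-0.21 to 0.21) and its interaction (-0.066 to 0.35), the KDM6A interaction (-0.21 to 0.022), and, untreated, RBBP7 (-0.055 to 0.037) and PHF1 (-0.21 to 0.013). The log2 ratio of EZH1 to EZH2 was -1.39, -1.65, -2.09 and -1.48 with a pseudocount of 1 in Raji DMSO, Raji chidamide, Raji-4RH DMSO and Raji-4RH chidamide, and -1.76 in Raji chidamide with 0.1.

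Quantile normalization moved the median of all genes in Raji-4RH by -0.11 and the calls from 4642 higher and 3380 lower to 3718 and 4057. Replicate numbers were not shown to pair samples, since deviations of same-numbered libraries correlated at -0.09 in Raji and 0.17 in Raji-4RH. Of the calls on members and accessory genes, the replicate block did not keep EED in Raji (adjusted p = 0.0535) or EED and PHF1 by the interaction (0.0587 and 0.0615), and called 7 members in Raji-4RH, 4 in Raji, 6 by the interaction and 5 between the untreated lines, where the correlation was -0.16 and crossed numbers called 6 members and 8542 genes. The comparison with only the libraries compared was not run for the interaction, which needs all 8. JARID2 rests on 31 and 32 reads in Raji-4RH DMSO.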
